A study of Mus musculus with 4 samples.

Results

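Intestinal stem cell and Wnt target genes were followed in single epithelial cells of the irradiated mouse small intestine. The 10 genes were Lgr5, Olfm4, Ascl2, Axin2, Rnf43, Znrf3, Sox9, Ephb2, Ephb3 and Cd44, taken by symbol from the 32285 genes of the deposited matrices, and all 10 were present. The KO mice were VilCreIfnlr1fl/fl animals, in which Villin-driven Cre recombinase acts on floxed Ifnlr1, the receptor chain for type III interferon, in the intestinal epithelium. WT mice served as controls, and the labels used here give neither their Cre status nor the age of the mice. Both genotypes were irradiated with gamma rays at 11 Gy while lead covered the head, chest and arms, and were collected 96 h later according to the design text or 3 days later according to the extraction protocol. Cells were sorted as live, EPCAM-positive and CD45-negative, and the 3 mice of a genotype, each with its own hashtag, were pooled in 1 10x Genomics 3′ library. Genotype and pool therefore cannot be told apart, and p-values between KO and WT measure the spread between mice within 2 pools. The labels name 2 experiments, of which the first is reported.

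Wnt signals from Paneth cells and from the mesenchyme around the crypt maintain the stem cells at the crypt base. Wnt ligands bind Frizzled and LRP receptors and stabilise β-catenin, which acts with TCF/LEF factors on target genes. LGR5, itself a target, binds R-spondins and marks crypt base columnar stem cells. RNF43 and ZNRF3 are membrane ubiquitin ligases that remove Frizzled receptors, and AXIN2 is a scaffold of the β-catenin destruction complex, so all 3 act as feedback inhibitors. ASCL2 is a transcription factor of stem cells, and SOX9 is a transcription factor of the crypt that is needed for Paneth cells. EPHB2 and EPHB3 are receptors that position cells along the crypt, CD44 is a hyaluronan receptor of crypt cells, and OLFM4 is a secreted glycoprotein that marks mouse crypt base cells.

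The members are spread over 7 chromosomes in the GENCODE annotation of GRCm38, with Axin2 at chr11:108920349-108950783 on the plus strand and Rnf43 at chr11:87662722-87735539 on the plus strand. These were the 2 members that were lower in every KO mouse than in every WT mouse in enterocytes, and the 250 bases before their RefSeq starts (GRCm38.p6, plus strand, 5′ to 3′) are shown for that reason. Rnf43 has 2 starts in the table. Capitals would mark a TCF/LEF core on either strand, which is CTTTGAA or the same word with its last pair of letters changed to AT, TA or TT.
Axin2, chr11:108920099-108920348: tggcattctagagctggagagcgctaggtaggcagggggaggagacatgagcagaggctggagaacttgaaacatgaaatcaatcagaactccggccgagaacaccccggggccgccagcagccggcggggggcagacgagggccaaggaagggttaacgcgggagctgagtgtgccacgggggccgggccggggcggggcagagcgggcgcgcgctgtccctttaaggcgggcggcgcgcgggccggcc
Rnf43, upstream start, chr11:87662837-87663086: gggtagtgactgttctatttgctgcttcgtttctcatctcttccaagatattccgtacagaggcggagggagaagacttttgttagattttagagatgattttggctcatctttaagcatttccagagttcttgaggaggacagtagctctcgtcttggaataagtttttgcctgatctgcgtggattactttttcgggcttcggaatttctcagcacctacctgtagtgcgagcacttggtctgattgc
Rnf43, downstream start, chr11:87699647-87699896: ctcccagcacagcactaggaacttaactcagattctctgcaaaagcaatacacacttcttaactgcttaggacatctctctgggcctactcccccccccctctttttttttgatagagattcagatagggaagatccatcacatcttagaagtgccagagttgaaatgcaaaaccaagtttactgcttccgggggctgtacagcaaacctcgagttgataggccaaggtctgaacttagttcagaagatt
No letter is in capitals because no such core was found in the 3 stretches. The promoter table held 7 of the 10 members in 8 stretches, and 0 of the 7 had the core in the 250 bases. Of all 32851 stretches in the table, 14.8% held one. The absence says only that these letters are not in these windows. Lgr5, Znrf3 and Sox9 are members with no stretch shown.

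The KO library held 7370 barcodes with 110960113 UMIs (molecular barcodes that count transcripts) and the WT library 10453 barcodes with 102915321 UMIs. Limits of 1000 UMIs and 500 genes from below and 25% mitochondrial UMIs from above kept 4028 KO and 5563 WT barcodes, of which 2868 KO and 2773 WT barcodes were assigned to a single mouse. Between 843 and 1062 cells came from each mouse. The libraries shared 28 barcodes, 9 of them among kept cells. Ifnlr1 itself stood at 26.9, 16.0 and 22.7 CPM (UMI counts scaled to a common total of 1e6) in KO mice and 22.6, 15.5 and 26.3 CPM in WT mice over all cells. The sources used here do not say which exons are floxed, so these 3′ counts do not check the genotype. In enterocytes, 3 of 10471 genes passed the test, all lower in KO mice: the interferon-induced genes Rsad2, Rnf213 and Oas1g, which were named after their values were seen. The hashtags are labelled 1 to 3 per genotype, and each is taken as 1 mouse.

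Cells were placed by marker genes in 5 gates, in the order Paneth, goblet, Olfm4-positive, cycling and enterocyte, each cell in 1 gate at most. The Olfm4-positive gate takes cells in which Olfm4 makes up at least 0.1% of UMIs, so the Olfm4 level there is fixed by the gate and is given as a description. The 2 mice with hashtag 2, KO2 and WT2, stood apart from the other 4. The Olfm4-positive gate held 61 KO2 cells (6.13% of that mouse, exact binomial 95% interval 4.72 to 7.81%) and 49 WT2 cells (5.66%, 4.21 to 7.41%). It held 0 cells in KO1, KO3 and WT1, which allows shares of up to 0.291%, 0.356% and 0.355% at 3 counts of each mouse's total, and 1 cell in WT3. The cycling gate showed the same split, with 97 cells in KO2 and 34 in WT2, against 1, 0, 1 and 1 in KO1, KO3, WT1 and WT3. Above the mitochondrial limit a further 3 KO2 cells and 1 WT2 cell met the Olfm4-positive gate, and none of the other 4 mice had any. A further 17 KO and 42 WT cells in this gate had no single hashtag and could be placed in no mouse. Assigned Olfm4-positive and cycling cells thus came almost wholly from 1 mouse of each genotype, and could be compared between KO and WT only as 1 mouse against 1 mouse. Enterocytes were plentiful in every mouse, with 803, 506 and 615 cells in KO mice and 594, 494 and 850 in WT mice. A further 373, 238 and 337 KO and 421, 440 and 659 WT cells above the mitochondrial limit met the enterocyte gate, so WT mice lost more. The cycling gate lost 13 KO2 and 2 WT2 cells at that limit. The part of these losses in the results was not tested. Goblet cells numbered 135, 160 and 144 in KO mice and 211, 158 and 152 in WT mice, and Paneth cells 17, 16 and 17 in KO mice and 9, 17 and 4 in WT mice. The WT library lost more cells of these gates for want of a single hashtag: 88 KO and 1137 WT goblet cells, 16 KO and 82 WT Paneth cells, and 952 KO and 1414 WT enterocytes were placed in no mouse. With a cell given to a mouse when its highest hashtag was at least 3 times the next, goblet cells numbered 145, 179 and 162 in KO mice and 151, 177 and 540 in WT mice.

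**Figure D1:**
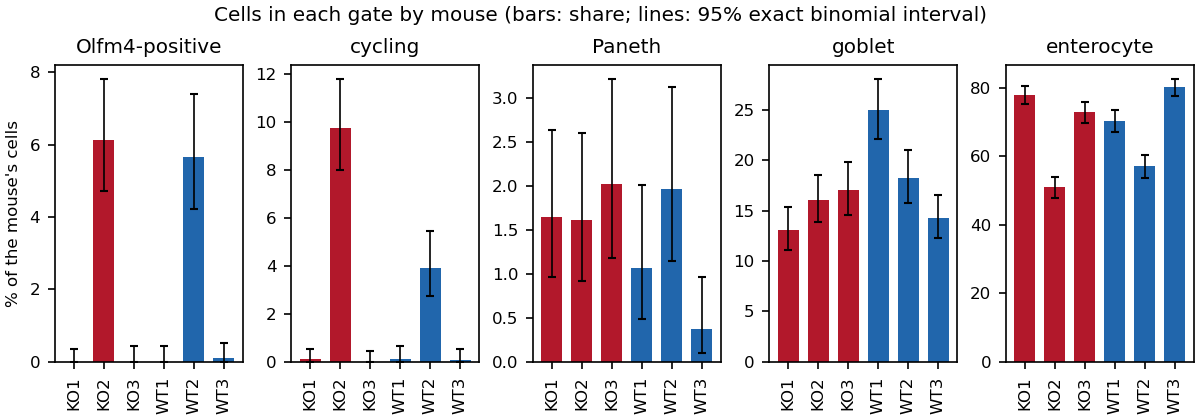
Share of each mouse's cells in the 5 gates (y axis, percent; KO mice red, WT mice blue; lines are exact binomial 95% intervals). Olfm4-positive and cycling cells reach 6.13% and 9.75% in KO2 and 5.66% and 3.93% in WT2, and are near 0 in the other 4 mice.

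In Olfm4-positive cells the stem cell markers Lgr5 and Ascl2 were found together with all the Wnt feedback genes. Lgr5 had 136 CPM in KO2 cells and 83.6 CPM in WT2 cells, from 542 and 209 UMIs. Ascl2 had 61.4 CPM in KO2 and 49.2 CPM in WT2. Both genes were close to absent from enterocytes, where Lgr5 had 4 UMIs in KO2 and 3 in WT2, and Ascl2 had 0 in KO2 and 1 in WT2. The feedback inhibitor Znrf3 had 105 and 92.8 CPM in the Olfm4-positive cells of KO2 and WT2, and 3.42 and 3.07 CPM in their enterocytes. Rnf43 had 155 and 113 CPM in the Olfm4-positive cells of KO2 and WT2, and 27.1 and 38.3 CPM in their enterocytes.

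With KO2 and WT2 as 2 mice and the mouse as a block, the 6 members other than Olfm4 that also passed the filter on low counts in the enterocyte comparison were all higher in Olfm4-positive cells than in enterocytes of the same mice (edgeR quasi-likelihood test, Benjamini-Hochberg adjusted p under 0.05). Over all genes 36.4% of 11691 were higher and 36.5% lower in this comparison, and their median difference was 0.01 on the log2 scale with TMM scaling and 0.62 with library size alone. Lgr5, Ascl2 and Ephb3 did not pass that filter in enterocytes and had to differ here, so they are not counted. The log2 differences were 4.31 for Znrf3 (SE 0.29, adjusted p = 4.35e-09, edgeR), 3.59 for Sox9, 3.47 for Cd44 and 3.24 for Ephb2. They were smaller for Rnf43 (1.40, SE 0.29, adjusted p = 0.000389, edgeR) and Axin2 (1.15, SE 0.47, adjusted p = 0.0374, edgeR). Axin2 had 90.5 CPM in KO2 and 62.0 CPM in WT2 Olfm4-positive cells, against 9.49 and 38.8 CPM in their enterocytes. The single value for Axin2 thus averages a larger difference in KO2 and a smaller one in WT2. Ephb3 had 47 and 30 UMIs in the Olfm4-positive cells of KO2 and WT2, and 12 and 3 UMIs in their enterocytes. Median UMIs per cell were 63239 in KO2 and 47943 in WT2 for the Olfm4-positive gate, against 10888 and 10259 for enterocytes.

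In cycling cells left by the Olfm4-positive gate in the same mice, Znrf3 and Ephb2 stayed high while Lgr5 was scarce. Cycling cells rich in Olfm4 were already in the Olfm4-positive gate. There, 5 of the cycling genes summed to 962 CPM in KO2 and 1002 CPM in WT2, against 1534 and 1524 CPM in the cycling gate. The part of the gate order in the low Lgr5 level was not tested. Ephb2 had 59.7 CPM in KO2 and 59.3 CPM in WT2 cycling cells, and Znrf3 had 50.1 and 56.0 CPM. Lgr5 had 27 UMIs in 5 of 97 cycling cells of KO2 and 0 in the 34 of WT2, and the 1 cycling cell of WT1 alone had 27. Against enterocytes of KO2 and WT2, 4 of the same 6 members (Znrf3, Sox9, Ephb2 and Cd44) were higher in cycling cells by edgeR, where 34.5% of genes were higher and 34.2% lower. Axin2 and Rnf43 did not pass, and the 2 mice went opposite ways. Axin2 had 17.8 CPM in KO2 and 8.34 CPM in WT2 cycling cells, against 9.49 and 38.8 CPM in their enterocytes. Rnf43 had 40.2 and 25.5 CPM in those cycling cells, also above enterocytes in KO2 and below them in WT2. Paneth cells of these 2 mice had the same 4 of the 6 members higher than enterocytes by edgeR, beside 23.6% of all genes higher and 27.8% lower, and again Axin2 and Rnf43 did not pass.

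**Figure D2:**
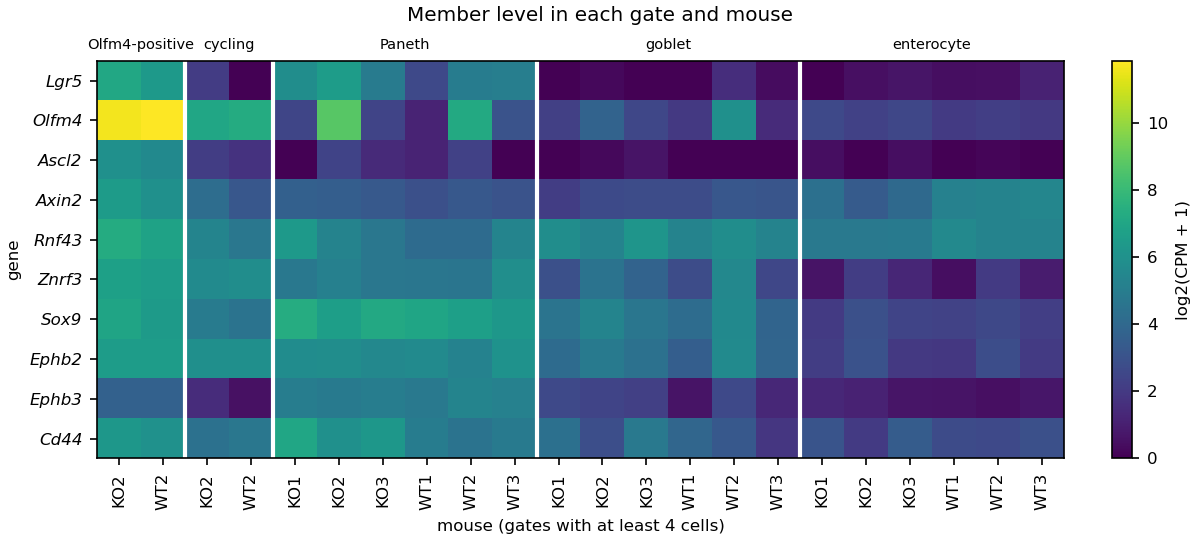
Level of the 10 members (rows) as log2(CPM + 1) in each mouse and gate (columns, gates with at least 4 cells; KO mice left of WT mice). Lgr5 and Ascl2 are bright only in Olfm4-positive columns and, for Lgr5, Paneth columns, while Axin2 and Rnf43 are visible in every gate.

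Between KO2 and WT2, the Olfm4-positive cells differed by gene. The ratio of CPM in KO2 over WT2 was 1.62 for Lgr5 (95% counting interval 1.38 to 1.91), 1.46 for Axin2 (1.21 to 1.77), 1.37 for Rnf43 (1.19 to 1.58) and 1.36 for Sox9 (1.16 to 1.61). It was 0.994 for Ephb2 (0.842 to 1.18), 0.981 for Ephb3 (0.608 to 1.61) and 1.13 for Znrf3 (0.961 to 1.33). It was 1.25 for Ascl2 (1.001 to 1.56), 1.21 for Cd44 (0.996 to 1.48) and 0.860 for Olfm4, the gate's own gene (0.837 to 0.883). These intervals cover counting error only and compare 2 mice, so there is no replicate check. With every cell thinned to 2000 UMIs, 22.4% of KO2 and 18.4% of WT2 Olfm4-positive cells had an Lgr5 UMI, and 12.1% and 12.2% had an Axin2 UMI.

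Axin2 in enterocytes was lower in all 3 KO mice than in all 3 WT mice. Axin2 had 19.7, 9.49 and 15.8 CPM in KO enterocytes, against 36.0, 38.8 and 43.0 CPM in WT enterocytes. The highest KO mouse lay below the lowest WT mouse, and the means were 15.0 ± 5.15 CPM in KO and 39.3 ± 3.52 CPM in WT (SD, n = 3 each), a ratio of 0.381. The values rest on 405 KO and 902 WT UMIs. The 2-sided exact permutation test gave p = 0.1, the smallest that 3 against 3 mice allow. Across all genes the log2 change was -1.56 (SE 0.29, adjusted p = 0.266, edgeR), which missed the threshold. With the hashtag number as a block it was -1.60 (SE 0.18, adjusted p = 0.001, edgeR), and without the KO2 and WT2 mice -1.38 (SE 0.17, adjusted p = 0.0114, edgeR). The labels state no pairing of mice by hashtag number. Axin2 in enterocytes was chosen with earlier results of these data known, so these p-values describe a known pattern and are no independent support.

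Rnf43 was the other member lower in KO enterocytes. Rnf43 had 26.8, 27.1 and 27.5 CPM in KO enterocytes, against 47.6, 38.3 and 39.2 CPM in WT enterocytes. The groups did not overlap, with means of 27.1 ± 0.32 CPM in KO and 41.7 ± 5.14 CPM in WT (SD, n = 3 each). The values rest on 747 KO and 929 WT Rnf43 UMIs. The log2 change was -0.78 (SE 0.17, adjusted p = 0.35, edgeR), and with the block -0.77 (SE 0.13, adjusted p = 0.00472, edgeR). Of the 7 members that passed the filter on low counts in enterocytes, 0 passed the test without the block, where 0.0287% of genes did. With the block, 2 of the 7 were lower and 0 higher, where 19.8% of all genes passed, 8.28% lower and 11.5% higher. Without the KO2 and WT2 mice, Rnf43 changed by -0.89 (SE 0.14, adjusted p = 0.0196, edgeR), where 4.61% of genes were lower and 2.88% higher. Every KO mouse lay below every WT mouse for 4.06% of genes and above for 11.6%. The median change of all genes was 0.06 on the log2 scale with TMM scaling and 0.21 with library size alone, and with library size alone Axin2 changed by -1.39 and Rnf43 by -0.62.

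**Figure D3:**
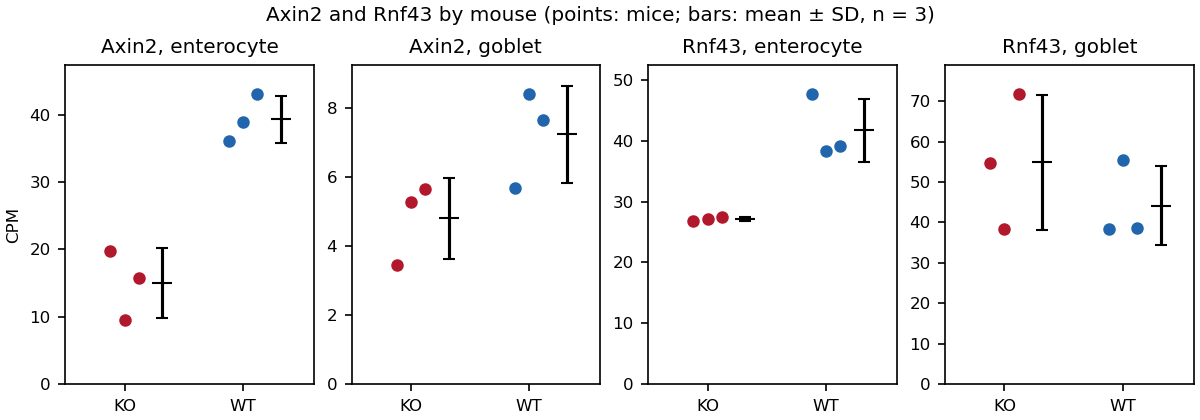
Axin2 and Rnf43 in CPM (y axis, from 0) in enterocytes and goblet cells; points are mice, KO left of WT, with the mean ± SD of 3 mice beside them. In enterocytes the KO and WT mice are separate for both genes, in goblet cells Axin2 is separate by a narrow margin and Rnf43 overlaps.

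The other members were scarce in enterocytes and showed no comparable difference. Olfm4 had 5.09, 3.91 and 4.71 CPM in KO and 2.99, 3.58 and 2.96 CPM in WT enterocytes. Every KO mouse was above every WT mouse, and the log2 change of 0.37 did not pass (SE 0.24, adjusted p = 0.732, edgeR). Mice with and without Olfm4-positive cells had Olfm4 in the same range in enterocytes. Sox9 ranged from 3.06 to 6.36 CPM in KO and 3.61 to 4.86 CPM in WT, and Cd44 from 3.03 to 9.78 CPM in KO and 5.24 to 6.46 CPM in WT. Ephb2 and Znrf3 split by hashtag rather than genotype. Ephb2 had 7.04 CPM in KO2 and 5.88 CPM in WT2, and 2.81 to 3.51 CPM in the other 4 mice. Znrf3 had 3.42 CPM in KO2 and 3.07 CPM in WT2, and 0.352 to 1.41 CPM in the others. Lgr5, Ascl2 and Ephb3 were too low to enter the fit, with 9, 6 and 30 UMIs in all KO enterocytes and 16, 1 and 12 in all WT enterocytes.

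Axin2 was found in fewer KO enterocytes as well as at a lower summed level. After thinning each cell to 2000 UMIs, 1.75, 1.59 and 1.81% of KO1, KO2 and KO3 enterocytes had an Axin2 UMI, against 6.56, 8.47 and 7.44% of WT1, WT2 and WT3 enterocytes. The difference of -5.78 percentage points had an exact permutation p of 0.1, the smallest possible, and 14 KO and 42 WT enterocytes under 2000 UMIs were left out. Unthinned, the mean shares were 12.2% in KO and 25.8% in WT. In goblet cells, where Axin2 was lower than in enterocytes, the thinned shares averaged 0.722% in KO and 2.17% in WT. Cells with 3 or more Axin2 UMIs numbered 20, 10 and 12 in KO1, KO2 and KO3 and 16, 33 and 43 in WT1, WT2 and WT3. Median UMIs per enterocyte were 8387, 10888 and 10809 in KO and 8186, 10259 and 9230 in WT mice.

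The lower Axin2 level held along the enterocyte range. Each mouse's enterocytes were divided into tertiles by the share of 5 villus-tip genes (Apoa4, Ada, Nt5e, Slc28a2 and Klf4), a division chosen after the data were seen. In the tertile with the lowest tip share, Axin2 averaged 23.0 ± 10.1 CPM in KO and 55.7 ± 16.0 CPM in WT mice (SD, n = 3 each). It averaged 10.5 ± 3.54 CPM in KO and 41.0 ± 7.34 CPM in WT in the middle tertile, and 3.31 ± 1.40 CPM in KO and 18.3 ± 8.27 CPM in WT in the tertile with the highest share. Every KO mouse was below every WT mouse in all 3, with an exact permutation p of 0.1 each. The log2 changes were -1.40 (SE 0.39, adjusted p = 0.826, edgeR), -2.04 (SE 0.25, adjusted p = 0.00189, edgeR) and -2.50 (SE 0.38, adjusted p = 0.00203, edgeR). Genes called lower made up 0%, 1.19% and 3.99% of those tested from the lowest to the highest, and genes called in either direction 0%, 1.8% and 6.26% (higher 0%, 0.608% and 2.27%). Whether the change differed between tertiles was not tested. The highest tertile of KO2 held only 3 Axin2 UMIs.

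Rnf43 overlapped between genotypes in the lowest tertile, with 30.3 to 39.7 CPM in KO and 36.9 to 69.1 CPM in WT mice. In the middle tertile it had 19.1 to 20.8 CPM in KO and 31.6 to 48.6 CPM in WT, and in the highest tertile 11.2 to 21.0 CPM in KO and 25.6 to 30.4 CPM in WT. The median tip share of the lowest tertile was 2.11, 0.643 and 1.70% in KO1, KO2 and KO3 and 2.81, 0.988 and 2.53% in WT1, WT2 and WT3. The tertiles therefore do not stand for equal tip shares. Median UMIs per cell in the lowest tertile were 11193, 31964 and 15293 in KO1, KO2 and KO3. They were 8304.5, 16913 and 9233 in WT1, WT2 and WT3. The part of tip share and depth in the result was not tested.

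**Figure D4:**
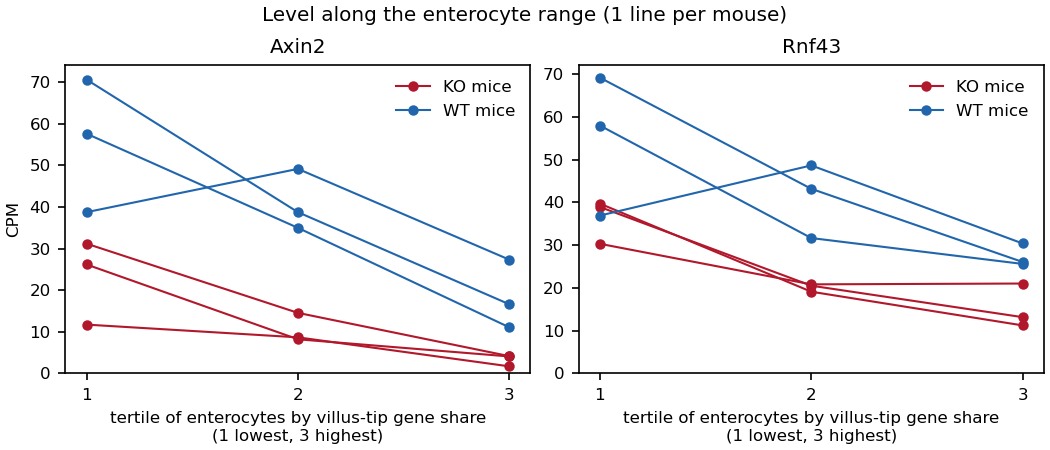
Axin2 and Rnf43 in CPM (y axis) by tertile of each mouse's enterocytes, ordered by villus-tip gene share (x axis); 1 line per mouse, KO red and WT blue. All KO lines lie below all WT lines for Axin2, and Axin2 is lowest in the highest tertile of every mouse, with a peak in the middle tertile in WT2 for both genes.

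In goblet cells the genotypes were closer. Axin2 had 3.46, 5.30 and 5.67 CPM in KO goblet cells and 5.68, 8.41 and 7.66 CPM in WT goblet cells. The highest KO mouse and the lowest WT mouse almost touched, and the log2 change of -0.66 did not pass (SE 0.31, adjusted p = 0.9998, edgeR). It was -0.66 with the block as well (adjusted p = 0.459, edgeR), and -0.51 with the hashtag ratio (SE 0.51, adjusted p = 0.9996, edgeR). Rnf43 overlapped, with 54.6, 38.3 and 71.7 CPM in KO and 38.4, 55.3 and 38.6 CPM in WT goblet cells. Of the 8 members tested, 0 passed with or without the block, beside 0% and 1.84% of all genes. Every KO mouse lay below every WT mouse for 3.9% of genes in goblet cells and above for 2.84%. The 5 neutrophil markers summed to 48.7 CPM in WT1 goblet cells and at most 8.30 CPM in the goblet cells of any other mouse, and their part in the goblet values was not tested.

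The test of the difference itself, KO over WT in enterocytes minus KO over WT in goblet cells, gave -0.96 for Axin2 (SE 0.35, unadjusted p = 0.0247, adjusted p = 0.921, edgeR) and -0.96 for Rnf43 (SE 0.30, adjusted p = 0.921, edgeR). Over all 11080 genes 0% passed. Without the KO2 and WT2 mice it was -1.40 for Rnf43 (SE 0.21, adjusted p = 0.00774, edgeR), where 0.831% of genes passed, and -0.67 for Axin2 (adjusted p = 0.492, edgeR). The enterocyte difference in Axin2 is therefore not shown to differ from goblet cells.

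Goblet cells and enterocytes of all 6 mice differed in opposite ways for Axin2 and for most other members. In all 6 mice with the mouse as a block, 72.5% of 10037 genes passed in goblet over enterocyte cells, 35.1% higher and 37.4% lower. Among 7 members tested, 5 were higher in goblet cells and 1 lower (edgeR). Znrf3 was higher by 3.25 on the log2 scale (SE 0.23), Sox9 by 2.67 (SE 0.17), Ephb2 by 2.46 (SE 0.17) and Rnf43 by 0.62 (SE 0.20), and Cd44 was the fifth (adjusted p = 0.0133, edgeR). Rnf43 was higher in goblet cells in the 3 KO mice and WT2, but not in WT1, at 38.4 CPM in goblet cells and 47.6 CPM in enterocytes, or in WT3, at 38.6 and 39.2 CPM. Axin2 alone was lower, with a difference of -1.95 (SE 0.23, adjusted p = 2.15e-05, edgeR). Znrf3, Sox9 and Ephb2 were highest in goblet cells of the hashtag 2 mice: Znrf3 had 21.6 CPM in KO2 and 45.8 CPM in WT2, and 4.71 to 12.8 CPM in the others.

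Paneth cells carried Sox9, Ephb3 and Cd44. Sox9 had 163, 99.5 and 143 CPM in KO Paneth cells and 127, 102 and 75.8 CPM in WT Paneth cells. Ephb3 had its highest level of the 5 gates there, at 28.6 to 31.7 CPM in KO and 26.9 to 39.3 CPM in WT. Both genes overlapped between genotypes. Cd44 had 128, 61.4 and 76.5 CPM in KO Paneth cells, against 30.7, 22.0 and 28.9 CPM in WT Paneth cells. The groups did not overlap, and no test was made on these cells because WT1 and WT3 held only 9 and 4 of them, under the minimum of 10. The counts were 362 UMIs in KO and 60 in WT Paneth cells, and 1 cell held 47 of the 165 in KO1, 39 of the 58 in KO2 and 54 of the 139 in KO3. The separation was lost with the hashtag ratio of at least 3, which gave 18, 20 and 21 Paneth cells in KO mice and 11, 21 and 12 in WT mice. Cd44 then had 110.3, 52.2 and 71.5 CPM in KO and 48.5, 75.8 and 94.3 CPM in WT Paneth cells, and the groups overlapped, with a log2 change of 0.13 (SE 0.29, adjusted p = 0.9999, edgeR). Of the 7 members tested with this ratio 0 passed, beside 0% of 6827 genes (265 genes had an unadjusted p under 0.05). The largest changes among them were 1.63 for Lgr5 (SE 0.52, unadjusted p = 0.00926) and 1.06 for Rnf43 (SE 0.37, unadjusted p = 0.015), both with an adjusted p of 0.9999 by edgeR. Lgr5 was also counted in Paneth cells, at 55.0, 94.2 and 29.7 CPM in KO and 5.12, 30.6 and 32.5 CPM in WT, from few cells: in KO1, 4 of 17 cells held its 71 UMIs, 47 of them in 1 cell. Olfm4 UMIs in the Paneth gate of KO2 and WT2 came mostly from 1 cell each, 405 of 415 and 180 of 189, and doublets of 1 mouse cannot be told apart from single cells here.

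Summed over all assigned cells, the balance of gates enters every value, and fewer cells of a type and less RNA per cell cannot be told apart. Axin2 had 16.0, 19.8 and 12.3 CPM in KO and 23.7, 27.2 and 32.9 CPM in WT mice, and the log2 change of -1.01 did not pass (SE 0.27, adjusted p = 0.989, edgeR). Cd44 had 62.3, 32.1 and 46.8 CPM in KO and 26.4, 20.2 and 14.2 CPM in WT mice, a log2 change of 1.04 that did not pass either (SE 0.38, adjusted p = 0.989, edgeR). With the block these were -0.98 (adjusted p = 0.0884, edgeR) and 1.02 (adjusted p = 0.0502, edgeR). Of the 10 members 0 passed, beside 0% of 12944 genes without the block and 1.17% with it. Axin2 was 1 of 215 genes (1.66%) below in every KO mouse, and Cd44 and Sox9 were 2 of 648 (5.01%) above in every KO mouse. Olfm4 was set by the hashtag 2 mice, at 413 CPM in KO2 and 485 CPM in WT2 and 2.78 to 9.97 CPM in the others.

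The gate that supplied a member's UMIs differed between the mice. In KO2 and WT2, 71.0% of Lgr5, 79.8% of Ascl2 and 40.1% of Axin2 UMIs lay in Olfm4-positive cells. In the other 4 mice 78.9% of Axin2 and 44.5% of Rnf43 UMIs lay in enterocytes, so that Axin2 in a whole-epithelium sum was mostly an enterocyte signal there. The 359 Lgr5 UMIs of those 4 mice lay in Paneth cells (38.4%), in cells of no gate (27.9%) and in tuft cells (19.8%). Of 91 Ascl2 UMIs in those mice, 75.8% lay in cells of no gate. These cells of no gate also supplied 54.8% of Cd44 UMIs, with Cd44 at 447, 70.7 and 268 CPM in KO and 211, 21.2 and 91.9 CPM in WT. Single cells weighed on these Cd44 values, 1 cell holding 295 of 542 UMIs in KO1 and 184 of 534 in KO2. The 10 genes of each mouse that led in cells of no gate over enterocytes were named after their values were seen. Genes whose symbols begin with Rpl, Rps or mt- were left out. The keratin gene Krt18 was shared by KO1, KO2, KO3 and WT1, and Krt19 by KO1, KO3, WT1 and WT3. Ccnd2, which encodes cyclin D2, was shared by KO1, KO2, KO3 and WT3. Ptma was shared by KO1, KO2, KO3 and WT2, and Ly6a by KO3, WT1 and WT3. The hormone genes Gip in KO2 and Sst in KO3 and immunoglobulin genes in WT2 stood first.

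**Figure D5:**
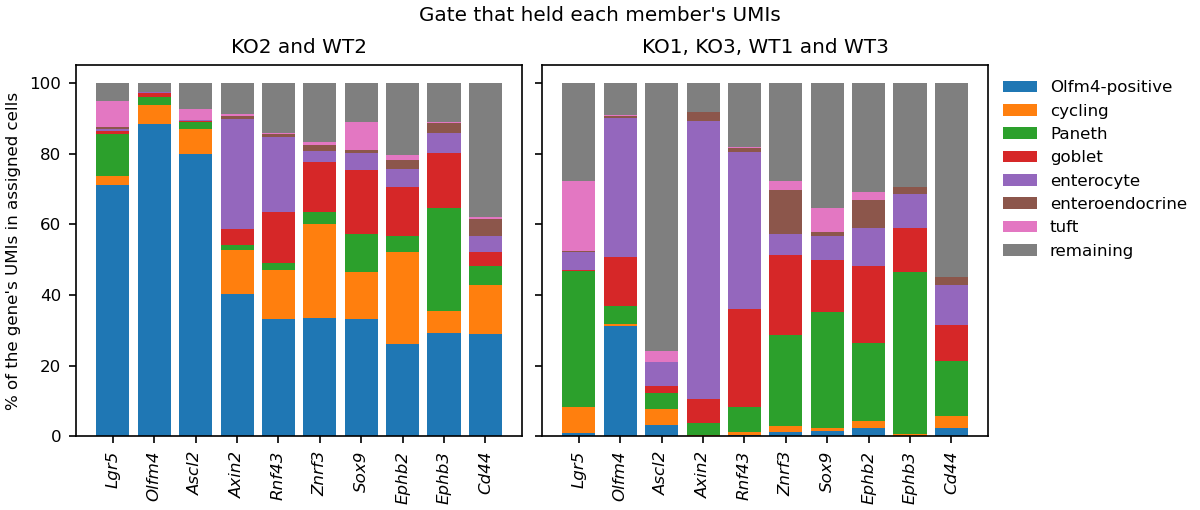
Share of each member's UMIs by gate (stacked bars, percent of UMIs in assigned cells) in KO2 and WT2 (left) and in KO1, KO3, WT1 and WT3 (right). Axin2 is mostly Olfm4-positive and enterocyte signal on the left, at 40.1% and 31.2%, and 78.9% enterocyte signal on the right.

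Tuft-like cells, chemosensory cells gated after the data were seen by Dclk1, Trpm5, Avil, Gfi1b and Il25, held the most Lgr5 per UMI. Lgr5 had 374, 209 and 335 CPM in 5, 8 and 7 KO tuft cells and 213, 192 and 203 CPM in 2, 10 and 5 WT tuft cells, above both Olfm4-positive values. Its counts were 95 UMIs in KO and 53 in WT tuft cells, and 29 of the 40 in KO2 came from 1 cell. Sox9 was also high, at 465 to 576 CPM in KO and 213 to 492 CPM in WT tuft cells, and Olfm4 reached at most 14.5 CPM. Ptprc, which encodes CD45, had 178 to 639 CPM in tuft cells and at most 1.89 CPM in a mouse's goblet cells and 1.20 CPM in its enterocytes, while the 5 T cell genes had 0 UMIs in tuft cells. In enteroendocrine cells, gated likewise by hormone genes, Rnf43 had 15.1, 37.9 and 19.2 CPM in KO and 88.5, 49.2 and 73.4 CPM in WT. These rest on 15 KO and 32 WT UMIs and were not tested.

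Markers of T cells, macrophages and stroma were low in enterocytes. The 5 T cell, 4 macrophage and 5 stromal markers summed to at most 0.328, 0.766 and 0.511 CPM in any mouse's enterocytes, and Ptprc to at most 1.20 CPM. The enterocyte gate's 9 genes summed to 75625 to 82106 CPM in KO and 76620 to 92514 CPM in WT enterocytes. Paneth markers in enterocytes summed to 504 to 695 CPM in KO and 211 to 290 CPM in WT, so the genotypes did not overlap, and their part in the Axin2 result was not tested. Goblet markers summed to 1903, 1508 and 1810 CPM in KO and 2075, 1568 and 2001 CPM in WT enterocytes, and the genotypes overlapped. Axin2 in Paneth cells was 8.81 to 11.6 CPM in KO and 6.39 to 8.64 CPM in WT, from 41 and 18 UMIs. Every KO mouse thus lay above every WT mouse in Paneth cells, opposite to enterocytes, and no test was made on these cells. With the hashtag ratio, Axin2 in Paneth cells had 10.7, 8.29 and 8.39 CPM in KO and 5.39, 3.48 and 5.10 CPM in WT. With enterocytes that held any Olfm4 or cycling gene UMI left out, the Axin2 change was -1.60 (SE 0.18, adjusted p = 0.0133, edgeR).

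Few other Wnt pathway genes were called between genotypes. Of a list of 37, 19 were tested in enterocytes, and 0 passed without the block. Only 3 of 10471 genes passed in that fit, so this does not show that the 19 were unchanged. Their median log2 change was -0.18, beside 0.06 over all genes. With the block, 1 was higher and 0 lower: Fzd5, a Wnt receptor, rose by 0.50 (SE 0.14, adjusted p = 0.0322, edgeR) in that fit, where 11.5% of all genes were higher, and without the block that change had an adjusted p of 0.671 (edgeR). Tcf7l2 was called lower in the lowest tertile with the block, where 741 of 9448 genes were lower. In goblet cells 21 were tested and 0 passed, with a median of 0.12 beside 0.00. Of a list of 12 stem cell genes, 6 were tested in enterocytes and 8 in goblet cells, and 0 passed in either. Without the KO2 and WT2 mice, Hopx was higher and Prom1 lower in enterocytes, and Lrig1 higher in goblet cells, where 1.53% of genes were higher.

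In Olfm4-positive over enterocyte cells of KO2 and WT2, where 36.4% of all genes were higher and 36.5% lower, 11 of 12 stem cell genes were higher and 0 lower. Of the 12, 6 passed the filter in the enterocyte comparison, and the others entered only through the other gates of this fit, so the count is a description. Slc12a2, a chloride cotransporter, was higher by 7.90 (SE 0.37) and Smoc2, a secreted stem cell marker, by 7.09 (SE 0.40). Of 25 Wnt pathway genes tested, 9 were higher and 6 lower, and with library size alone 12 were higher and 3 lower. Those higher included the target Myc (5.60, SE 0.45), the transcription factor Tcf7 (4.29, SE 0.61) and the R-spondin receptor Lgr4 (0.64, SE 0.18). Those lower included Tcf7l2, which encodes TCF4 (-2.68, SE 0.22), Apc, the destruction complex scaffold (-1.31, SE 0.18), and Ctnnb1, which encodes β-catenin (-1.04, SE 0.18). All had an adjusted p under 0.05 by edgeR with TMM scaling. With library size alone Tcf7l2 and Apc were still called lower, but Ctnnb1 was not called.

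Over 10 points, the 5 gates in each genotype, the genes whose pooled log2(CPM + 1) was most like that of Axin2 were Wwox (Pearson r = 0.95), Slc20a2 (0.925), Strip2 (0.921), Cers6 (0.919) and Ces1d (0.915). For Lgr5 they were Zfp503 (0.966), Gm16863 (0.960), Pacs1 (0.952), Mvb12b (0.951) and Fgfr4 (0.948). They are the highest of 12943 genes over few points that share libraries and depth, and are given as a description.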

How the data were processed

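Per the submitters' processing notes, Cell Ranger 7.0.1, Seurat 4.1.0 and mm10 were used by the authors; the deposited matrices hold raw UMI counts per gene and barcode, with hashtag counts, and whether intronic reads were counted is not given in the sources used here. Barcodes were assigned to mice with HTODemux (Seurat 5.3.0, quantile 0.99), and hashtag doublets and barcodes without a hashtag were left out. No doublet caller was run. Counts were summed per mouse and gate where every mouse in the fit had at least 10 cells. They were tested with edgeR 4.0.16 in R 4.3.3 (quasi-likelihood test, TMM, filterByExpr, Benjamini-Hochberg, threshold 0.05). The SE is the log2 change over the root of F. DESeq2 1.42.0, no TMM, no filter, other gates and leaving out mice were alternatives. The enterocyte fit was tested on simulated data. Thinning used seed 7.

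Gates: Defa genes and Lyz1 at least 5% of UMIs (Paneth), 5 goblet genes 1%, Olfm4 0.1% and 3 UMIs, 11 cycling genes 0.1%, 9 enterocyte genes 3%. CPM is relative to all UMIs of the gate and mouse. Poisson and binomial 95% intervals and the limit of 3 counts for a count of 0 cover counting error only.

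The hashtag number was taken as a pairing in the fits with a block. Mice with the same number deviated together from their genotype mean (correlations of 0.416, 0.854 and 0.638 over all cells, 0.622, 0.807 and 0.512 in enterocytes, 0.473, 0.751 and 0.346 in goblet cells). The labels state no pairing, and over all cells KO1 also correlated with WT3 at 0.638 and KO3 with WT1 at 0.461, above the 0.416 of KO1 with WT1. KO1 with WT3 also exceeded KO3 with WT3 in enterocytes (0.548 against 0.512) and in goblet cells (0.464 against 0.346). KO2 and WT2 lay apart from the other mice, which by itself makes the deviations of hashtags 1 and 3 correlate. The correlations therefore do not show a pairing of hashtags 1 and 3. Named genes are the 10 members, genes of the Wnt and stem cell lists past the threshold, and the 5 genes most like Axin2 and Lgr5. Members, gates and lists were chosen with earlier results of these data known.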

Additional observations from a re-analysis of the deposited data

How the results depend on the processing

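The number of genes called between KO and WT depended on the fit, while the direction of Axin2 and Rnf43 in enterocytes did not. Over all cells 0 genes were called, but 36 with DESeq2, 152 with the replicate block, 1212, 55 and 36 with the replicate block when the pair with hashtag 1, 2 or 3 was dropped, and 9 without KO2 and WT2; at an unadjusted p under 0.05 edgeR had 232, and leaving out any single mouse gave 0. In enterocytes 3 were called, against 97 with DESeq2, 5 with library size alone, 36 with no filter, 2074 with the replicate block and 783 without KO2 and WT2. The count was 1276, 1765 and 349 with the replicate block when the pair with hashtag 1, 2 or 3 was dropped, 9 with the hashtag ratio, 14 and 0 with gate shares doubled and halved, 1 at a mitochondrial limit of 15%, 12 without the 5% of cells with most UMIs, and 0 without any single mouse. In goblet cells 0 were called (292 at an unadjusted p under 0.05), against 36 with DESeq2, 4 with no filter, 174 with the replicate block, 137, 934 and 217 with it when the pair with hashtag 1, 2 or 3 was dropped, 371 without KO2 and WT2, 6 with gate shares doubled, and 0 to 9 without any single mouse, the 9 being without WT2.

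The Axin2 change in enterocytes stayed negative in all 26 alternatives, from -2.50 to -1.28, and passed the threshold in 12. It passed with DESeq2 (-1.56), with the replicate block (-1.60), without KO2 and WT2 (-1.38), with the replicate block after dropping the pair with hashtag 1 (-1.88), 2 (-1.38) or 3 (-1.56), in cells with no Olfm4 or cycling UMI (-1.60), in the lowest tertile with the replicate block (-1.45), and in the middle and highest tertiles without (-2.04, -2.50) and with (-2.06, -2.44) the replicate block. Without any single mouse the Axin2 change ranged from -1.81 to -1.33. Its adjusted p (edgeR or DESeq2) over all 26 alternatives ranged from 0.000935 to 0.999, and the cause was not tested. Rnf43 stayed negative in 26 alternatives, from -1.11 to -0.43, and passed in 9, unplanned fits included. The Axin2 difference between enterocytes and goblet cells stayed negative and short of the threshold in 14 alternatives (-1.28 to -0.67), with no adjusted p from DESeq2. The Axin2 share difference stayed negative in 13, from -13.6 to -2.59 points. Members other than Olfm4 called higher in Olfm4-positive cells numbered 8 to 9 over 7 alternatives, Lgr5, Ascl2 and Ephb3 included. Lgr5, Ascl2 and Ephb3 had to differ, so this count is only a description. Of all genes 36.4% were higher in the main fit, and 5582 of 11691 with library size alone.

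The replicate block over all 3 pairs changed no call among members other than Axin2 and Rnf43 in enterocytes. With the pair of hashtag 1 dropped, Lgr5 (0.88) and Cd44 (1.03) were called higher and Axin2 (-1.06) lower over all cells. Of all 13646 genes in that fit, 526 were higher and 686 lower. With the same pair dropped, Olfm4 (-1.28) was lower in goblet cells, beside 107 of 10131 genes. With the pair of hashtag 2 dropped, Rnf43 (0.50) and Cd44 (1.36) were called higher in goblet cells, beside 379 of 9159 genes higher and 555 lower. With the pair of hashtag 3 dropped, Olfm4 (-1.61) was lower there, beside 165 of 10151 genes. These 9 fits were added after the data were seen. The planned fit of Olfm4-positive over enterocyte cells in all mice could not be made and was replaced by KO2 and WT2 after the data were seen, so it has no variant without a mouse. KO and WT were not tested in Olfm4-positive and cycling cells, since a mouse held fewer than 10 of them under every setting, and their alternatives were not run. In Paneth cells only the hashtag ratio left every mouse 10 cells, and its fit called 0 genes. Depth limits Lgr5, Ascl2 and Ephb3 outside the crypt, whose differences between genotypes were not detectable at these counts.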
